A study of Homo sapiens with 6 samples.

Results

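The genes described here are 10 human genes for the entry and the intracellular binding of long-chain fatty acids: SLC27A1 to SLC27A6, CD36, FABP3, FABP5 and FABP7. They were found by their symbols among the 60504 genes of the expression table, where each symbol had 1 row. The list was drawn up with the values of HDAC8 against EV already known, so it was selected on measured values of the same contrast, and the counts of members that rose or fell are a description. The libraries came from WM164, a human melanoma cell line whose genotype is labelled BRAFV600E, and were measured by bulk RNA-seq. The EV group (3 libraries) carried an empty expression vector and the HDAC8 group (3 libraries) an HDAC8 expression vector. Both groups were transfected with plasmid and kept under hygromycin according to the methods of the study, and they shared the cell line and its BRAF mutation. No dose or time after transfection is given in the sources used here, nor whether each group was 1 clone or a pool.

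Long-chain fatty acids reach a cell from plasma or from neighbouring cells and cross the membrane with the help of surface proteins. CD36 is a scavenger receptor that binds fatty acids at the surface. The SLC27 family, also called FATP, combines uptake with acyl-CoA synthetase activity, which traps the fatty acid as its CoA ester. Inside the cell the small FABP proteins carry the fatty acid through the cytosol to membranes, lipid droplets, mitochondria, peroxisomes or the nucleus. FABP7 is best known from radial glia and is also made by cells of the melanocyte lineage, FABP5 is the epidermal form, and FABP3 is the heart and muscle form.

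Total counts per library ran from 34741083 to 42041462 and overlapped between the groups. A library with no read of a gene could still hold up to 3 counts of it by chance, which is 2.57 to 3.27 normalized counts, and these limits cover counting error only. The transcript of HDAC8, a class I histone deacetylase and the gene on the vector, did not check the labels: normalized counts spanned 384 to 479 in EV and 446 to 485 in HDAC8 (log2 fold change 0.15, SE 0.28, DESeq2 adjusted p = 0.856). Directions are therefore those of the libraries labelled HDAC8. Transcripts of the mitochondrial genome took 9.66% to 12.8% of counts in EV and 4.46% to 7.94% in HDAC8, with the lowest share in HDAC8 1. That library also stood apart by its counts, with a chi-square over degrees of freedom of 153 and 102 against HDAC8 2 and HDAC8 3, beside 26.0 between HDAC8 2 and HDAC8 3 themselves and 39.0 to 47.3 within EV. Without HDAC8 1 the log2 fold change was -3.37 for SLC27A3, 2.95 for FABP5 and -5.93 for FABP7, and all 3 were still called. The summed normalized count of 8 melanocyte lineage markers was 244961 to 328760 in EV and 137043 to 182218 in HDAC8, and 5 of the 8 fell (MLANA, PMEL, TYR, DCT and S100B) while none rose. The part of these values in the results for the fatty acid genes was not tested. None of the 20 markers of adipocytes, macrophages, endothelium, epithelium or hepatocytes was called by DESeq2 (0 at an unadjusted p under 0.05). The summed normalized count of the 4 epithelial markers was 77.5 to 132 in EV and 0 to 70.1 in HDAC8, without overlap, and its part in the results was not tested. The sums of the other 4 lists overlapped between the groups and were at most 263 in any library, and ADIPOQ, CD163, CDH5, EPCAM and ALB had no count in any library. In bulk RNA, fewer cells with a transcript and less of it per cell cannot be told apart.

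Of the 10 genes, FABP5 was higher and SLC27A3 and FABP7 were lower in HDAC8. A gene was called when its DESeq2 adjusted p, corrected over all genes, fell under 0.05 and it moved by 0.58 or more on the log2 scale. SLC27A1, SLC27A4 and SLC27A5 were measured well above the floor and not called. CD36 and FABP3 had a few counts and no adjusted p, and SLC27A2 and SLC27A6 had no count in any library. The 3 called genes were 50% of the 6 with an adjusted p, beside 11.0% of the 21021 genes with an adjusted p in the whole table (5.57% higher and 5.44% lower). The groups did not overlap for 3 of the 8 members with a total count of at least 10, beside 24.0% of the 26162 genes with that total. Because this contrast chose the list, nothing is read from these shares.

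**Figure D1:**
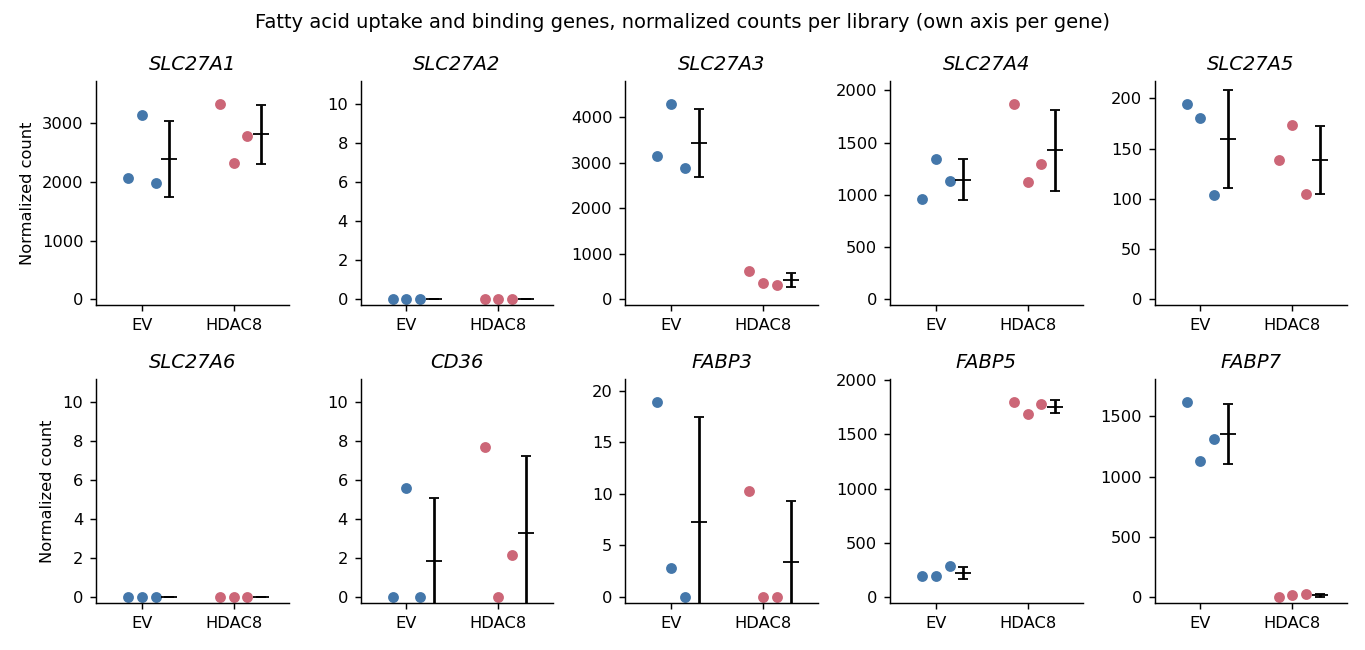
Normalized counts (vertical axis, DESeq2, own scale and starting at 0 for each gene) of the 10 genes in the 3 EV (blue) and 3 HDAC8 (red) libraries. Points are libraries and the black bars are the group mean and SD. FABP5 sat between 191 and 287 in EV and between 1692 and 1798 in HDAC8, and SLC27A3 and FABP7 were lower in every HDAC8 library than in any EV library.

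The sequence before the start site is shown for both genes that fell, to set their promoters side by side. The windows are those of RefSeq on GRCh38.p14, 250 bases upstream of the annotated start on the plus strand. That of SLC27A3 is chr1:153775157-153775406, which lies inside the GENCODE 44 span of the gene, since that span starts further upstream, at 153774354. That of FABP7 is chr6:122779466-122779715 and lies outside any annotated transcript of the gene. Capitals mark GGGCGG or its reverse complement CCGCCC (the GC box) in SLC27A3, and CCAAT or its reverse complement ATTGG (the CCAAT box) in FABP7.
SLC27A3: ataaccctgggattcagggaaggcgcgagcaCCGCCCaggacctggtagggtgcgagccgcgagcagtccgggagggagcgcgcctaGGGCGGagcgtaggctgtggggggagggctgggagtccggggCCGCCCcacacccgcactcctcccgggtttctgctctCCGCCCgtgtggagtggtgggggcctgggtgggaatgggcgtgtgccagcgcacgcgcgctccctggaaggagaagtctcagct
FABP7: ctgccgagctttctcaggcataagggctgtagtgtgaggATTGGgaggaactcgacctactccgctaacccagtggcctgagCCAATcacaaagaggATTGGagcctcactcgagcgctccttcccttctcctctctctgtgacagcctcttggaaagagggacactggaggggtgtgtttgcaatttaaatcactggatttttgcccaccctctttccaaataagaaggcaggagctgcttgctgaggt

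SLC27A3 had 4 GC boxes and no CCAAT letters in its window of 300 bases, which runs 250 bases before to 50 bases after the start, and FABP7 had 3 CCAAT boxes and no GC box. Neither held TATAAA, the TATA box, which 11.5% of all windows held. Over 35116 RefSeq windows of the same length, 45.0% held a GC box and 34.6% held CCAAT on either strand. The windows also differed in base composition, with a GC content of 68.7% for SLC27A3 and 52.7% for FABP7. Neither window, nor that of SLC27A1, SLC27A2, SLC27A4, SLC27A5 or SLC27A6, held the E-box letters CACGTG (7.26% of all windows) or CATGTG (11.1%), which MITF is known to bind. They also lacked TGAGTCA or TGACTCA, the AP-1 letters that JUN is known to bind (4.95%), and AGGTCA, a nuclear receptor half-site (13.8%), on both strands. FABP3 had CATGTG at position -46, counted from the start site to the first base of the match. CD36 has 6 windows, of which 1 held TGACTCA at -124 and 1 held CATGTG at -48. These matches are descriptions of letters and not of bound sites, and FABP5 was not in the table of windows.

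The SLC27 transporters were described next. SLC27A3 (ENSG00000143554, chromosome 1, 153774354 to 153780157, plus strand) is an acyl-CoA synthetase of the family that acts on long and very long chains. Its normalized counts were 3141, 4274 and 2877 in EV and 612, 350.3 and 314 in HDAC8. Every HDAC8 library was below every EV library, and HDAC8 1 was the highest of its group. The mean of 3430.3 ± 742 (SD, n = 3) in EV compared with 425 ± 163 (SD, n = 3) in HDAC8, 8.06-fold lower. The log2 fold change was -3.01 with a standard error of 0.26 (DESeq2 adjusted p = 1.68e-29). Of 959 genes that fell and averaged at least 50 normalized counts, 76 had a larger change.

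SLC27A1 (ENSG00000130304, chromosome 19, 17468769 to 17506168, plus strand), the insulin-responsive transporter of muscle and fat, had 2069, 3141 and 1978 normalized counts in EV and 3317, 2322 and 2786 in HDAC8. The groups overlapped. Its log2 fold change was 0.23 with a standard error of 0.21 (DESeq2 adjusted p = 0.612), and the 95% interval of the fold ran from 0.876 to 1.57. SLC27A4 (ENSG00000167114, chromosome 9, 128340527 to 128361470, plus strand), known from intestine and skin, had 962, 1347 and 1134 in EV and 1867, 1126 and 1296 in HDAC8. It overlapped as well, with HDAC8 1 the highest of the 6. The log2 fold change was 0.32 with a standard error of 0.24 (DESeq2 adjusted p = 0.489), with a fold between 0.897 and 1.73 at the 95% level. These intervals do not reach the size of the change of SLC27A3 in either direction.

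SLC27A5 (ENSG00000083807, chromosome 19, 58479512 to 58512413, minus strand) is the bile acyl-CoA synthetase of the liver and was counted at a low level here. Its normalized counts of 194, 180.2 and 103 in EV and 139, 173 and 105 in HDAC8 lay in 1 range. The log2 fold change was -0.20 with a standard error of 0.50 (DESeq2 adjusted p = 0.902). The 95% interval of the fold ran from 0.442 to 1.72, and a change within those limits was not detectable here. SLC27A2 (ENSG00000140284), the very long-chain synthetase of liver and kidney, and SLC27A6 (ENSG00000113396), the heart form, had 0 counts in all 6 libraries, which allows up to 3 counts in each. FBN2, whose annotated span overlaps that of SLC27A6 on the opposite strand over 121173 bases, was itself higher in HDAC8 (log2 fold change 1.50, DESeq2 adjusted p = 1.18e-05), while SLC27A6 stayed at 0.

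CD36 (ENSG00000135218, chromosome 7, 80369575 to 80679277, plus strand), the fatty acid receptor of macrophages, fat and muscle, was at the edge of detection. It had 0, 6 and 0 counts in EV and 9, 0 and 2 in HDAC8. Each group held libraries without a read, and no change can be read at this depth.

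Among the binding proteins, FABP5 rose and FABP7 fell. FABP5 (ENSG00000164687, chromosome 8, 81280536 to 81284777, plus strand), the epidermal form that also carries ligands to the nucleus, had 196, 191 and 287 normalized counts in EV and 1798, 1692 and 1782 in HDAC8. The groups were far apart and the 3 HDAC8 libraries lay close together. The mean went from 225 ± 53.7 (SD, n = 3) to 1757 ± 57.2 (SD, n = 3), 7.82-fold higher. On the log2 scale this was 2.97 with a standard error of 0.24 (DESeq2 adjusted p = 2.18e-33). Of 1065 genes that rose with a mean of at least 50, 97 had a larger change.

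FABP7 (ENSG00000164434, chromosome 6, 122779716 to 122784074, plus strand), the brain form, had 1618, 1127 and 1314 normalized counts in EV. The HDAC8 libraries had 0, 19 and 23 counts, which are 0, 19.5 and 25.0 normalized counts. HDAC8 1 was thus without a read, and the other two were far below any EV library. The mean was 1353 ± 248 (SD, n = 3) in EV and 14.8 ± 13.1 (SD, n = 3) in HDAC8, 91.2-fold lower. The log2 fold change was -6.52 with a standard error of 1.32 (DESeq2 adjusted p = 2.23e-05). Its size depended on single libraries: it was -5.93 (SE 0.34) without HDAC8 1 and -7.12 without HDAC8 3, and the gene was called in either case. Of the 959 genes that fell, 20 had a larger change.

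FABP3 (ENSG00000121769, chromosome 1, 31365253 to 31376850, minus strand), the heart and muscle form, had 18, 3 and 0 counts in EV and 12, 0 and 0 in HDAC8. Single libraries carried nearly all of its reads in both groups, and DESeq2 gave it no adjusted p.

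**Figure D2:**
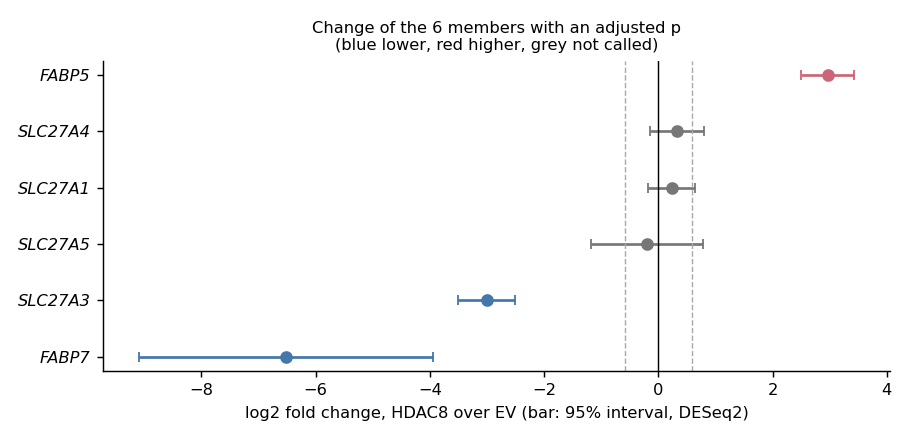
Log2 fold change of HDAC8 over EV (horizontal axis) for the 6 genes with an adjusted p, with the 95% interval of DESeq2 as a bar. Dashed lines mark 0.58 in either direction. FABP5 (2.97) lay to the right and SLC27A3 (-3.01) and FABP7 (-6.52) to the left of these lines, while the intervals of SLC27A1, SLC27A4 and SLC27A5 included 0.

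Levels of different genes were compared as normalized counts per kb of the longest annotated transcript of each gene. In EV, SLC27A3 had the highest level (762 ± 165, SD, n = 3), then FABP7 (649 ± 119), SLC27A1 (552 ± 149), SLC27A4 (355 ± 59.8), FABP5 (228 ± 54.4), SLC27A5 (31.6 ± 9.70), FABP3 (6.59 ± 9.28) and CD36 (0.302 ± 0.524). The libraries of SLC27A3 and FABP7 overlapped in this order, as did those of FABP7 and SLC27A1 and those of FABP3 and CD36, so these neighbours did not differ beyond their spread. In HDAC8 the order began with FABP5 (1782 ± 58.0, SD, n = 3), followed by SLC27A1 (647 ± 115), SLC27A4 (443 ± 120.2), SLC27A3 (94.4 ± 36.2), SLC27A5 (27.6 ± 6.81), FABP7 (7.11 ± 6.30), FABP3 (3.12 ± 5.40) and CD36 (0.533 ± 0.642). There the ranges of SLC27A1 and SLC27A4 overlapped, although SLC27A1 was the higher within each library (764, 535 and 641 against 578, 349 and 401). The ranges of FABP7, FABP3 and CD36 overlapped as well. FABP5 went from rank 5 to rank 1 of the 10 genes, SLC27A3 from 1 to 4 and FABP7 from 2 to 6.

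Within each family the makeup of the per-kb level shifted. SLC27A3 held 44.8% ± 1.31 (SD, n = 3) of the SLC27 level in EV and 7.66% ± 1.45 in HDAC8. SLC27A1 held 32.2% ± 1.59 and 53.7% ± 2.93, and SLC27A4 held 21.1% ± 2.47 and 36.3% ± 1.85. Neither was called on its own. Shares of a family are tied, so the fall of SLC27A3 raises the other shares even at unchanged levels. The FABP level was 73.3% ± 4.89 FABP7 and 26.0% ± 5.77 FABP5 in EV, and 99.4% ± 0.0792 FABP5 and 0.400% ± 0.352 FABP7 in HDAC8. The SLC27 sum was 1510, 2125 and 1466 per kb in EV and 1505, 995 and 1133 in HDAC8, ranges that overlapped, with a ratio of means of 0.712. The FABP sum was 992, 737 and 921 in EV and 1833, 1725 and 1819 in HDAC8, a ratio of 2.03 with no overlap. That ratio and the lack of overlap depend on the lengths used, 986 bases for FABP5 and 2086 bases for FABP7. Before scaling by length, FABP7 in EV (1618, 1127 and 1314 normalized counts) and FABP5 in HDAC8 (1798, 1692 and 1782) lay closer together. The unscaled FABP sums of the groups overlapped, with EV 1 above every HDAC8 library. Over all 10 genes the per-kb sum was 2502, 2863 and 2387 against 3340, 2721 and 2952, a ratio of 1.16 with overlapping groups.

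**Figure D3:**
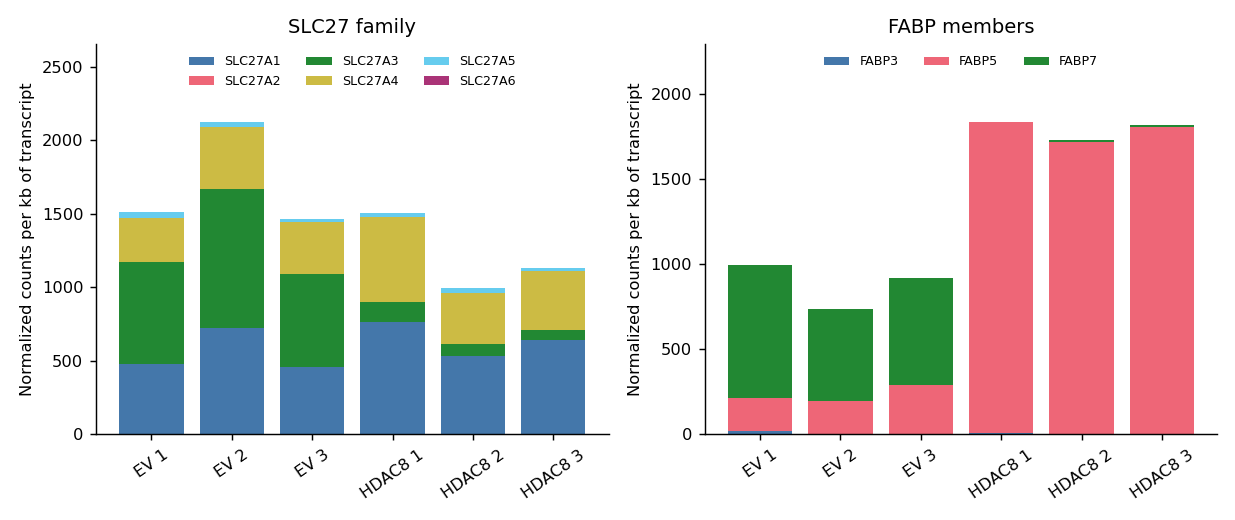
Normalized counts per kb of transcript (vertical axis, from 0), stacked by gene, in each EV and HDAC8 library for the SLC27 family and for the FABP members. SLC27A3 (green, left) was 44.8% of the EV bars on average and 7.66% of the HDAC8 bars. On the right FABP7 (green) made up most of the EV bars and FABP5 (red) 99.4% of the HDAC8 bars.

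FABP5 has near-identical processed copies in the genome, and an expected count divides an ambiguous read among its possible sources. Of 13 FABP5 pseudogenes in the table, 5 had counts. The part of the reads of gene and copies together that was assigned to the copies was 28.4%, 4.21% and 8.49% in EV and 10.2%, 6.14% and 5.38% in HDAC8, so the groups overlapped. The copy FABP5P7, on chromosome 11, had 0, 1.87 and 26.6 normalized counts in EV and 189, 86.0 and 81.7 in HDAC8, and was called higher as well (log2 fold change 3.65, SE 1.08, DESeq2 adjusted p = 0.00884). With the copies added to FABP5 its log2 fold change was 2.85 with a standard error of 0.23 (DESeq2 adjusted p = 1.85e-32). This setting was chosen after the values were seen. FABP7 has 2 such copies, which took at most 1.91% of its reads in EV. They had 0, 0 and 7.62 normalized counts in HDAC8, 23.3% of the reads of gene and copies in HDAC8 3.

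Some members overlap other genes, and counting by strand is not given in the sources used here. SLC27A3 shares 455 bases on the same strand with the end of INTS3, a subunit of the Integrator complex, which had a log2 fold change of -0.56 (DESeq2 adjusted p = 0.0184, not called). INTS3 had 5541, 5197 and 5308 normalized counts in EV and 4657, 3033 and 3172 in HDAC8, lower in every HDAC8 library. It passed both thresholds in 3 alternatives, with a log2 fold change of -0.58 with limma-voom, -0.59 with a replicate block and -0.79 without HDAC8 1. SLC27A5 shares 1719 bases with ZNF446 on the opposite strand (log2 fold change 0.32, DESeq2 adjusted p = 0.782). FABP5 overlaps an antisense RNA, AC009902.2, over 911 bases, which had at most 43.0 normalized counts in any library.

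The genes beside the called members showed which changes were shared along the chromosome. Besides INTS3, the genes around SLC27A3 were ILF2 (log2 fold change 0.08), GATAD2B (-0.20) and DENND4B (-0.31), and none was called. Beside FABP7, SERINC1 (0.03), SMPDL3A (-0.43) and CLVS2 (-1.20) were not called. PKIB, an inhibitor of protein kinase A that lies before FABP7, had 10, 8 and 34 counts in EV and 0 in each HDAC8 library. It was called lower (DESeq2 adjusted p = 0.0485) and kept that call in 2 of 11 alternative analyses. Beside FABP5, PAG1, an adaptor of Src family kinases, rose from 2711 ± 154 to 5325 ± 1096 normalized counts (SD, n = 3), which is 0.97 on the log2 scale with a standard error of 0.18 (DESeq2 adjusted p = 1.61e-06). ZNF704 (0.29), PMP2 (-0.05) and IMPA1 (0.14) were not called. PMP2 is a further fatty acid-binding protein, of peripheral myelin, next to FABP5, and it had 696, 573 and 493 normalized counts in EV and 300.1, 814 and 584 in HDAC8. With PMP2 counted among the FABP genes, FABP5 was 21.9% ± 5.35 (SD, n = 3) of their per-kb level in EV and 91.3% ± 3.69 in HDAC8.

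**Figure D4:**
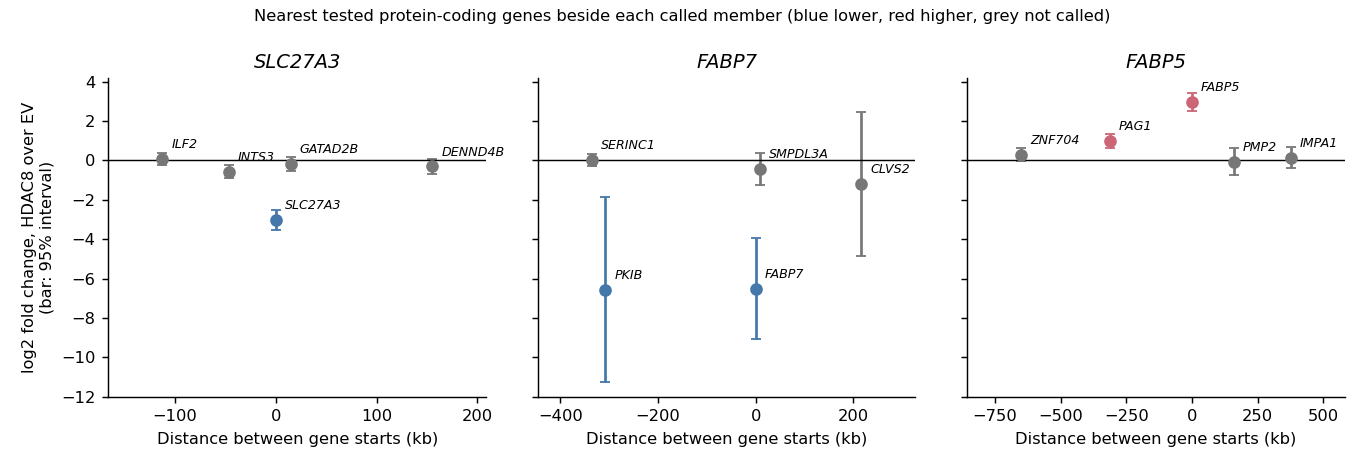
Log2 fold change of HDAC8 over EV with its 95% interval (vertical axis, DESeq2) for each called gene and its nearest tested protein-coding genes, against the distance between gene starts in kb (horizontal axis, 0 at the called gene). Blue is lower, red higher and grey not called. Beside FABP5 (2.97), PAG1 rose (0.97), and beside SLC27A3 (-3.01) no neighbour was called.

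The other steps of fatty acid handling were taken from 8 lists with 128 genes, of which 102 had an adjusted p. Of these, 9 rose and 9 fell, 17.6% of the 102 beside 11.0% over all genes. Their median log2 fold change was 0.01, against -0.0031 for all genes.

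The acyl-CoA synthetases outside the SLC27 family activate fatty acids after entry. Of 9 with an adjusted p, 2 fell, none rose and 7 were not called. Leaving out HDAC8 1 gave 1 called higher and 3 called lower, and a replicate block gave 3 called lower. ACSL1, the main form of fat and liver, went from 8895 to 4863 mean normalized counts (log2 fold change -0.87, SE 0.13, DESeq2 adjusted p = 8.80e-10). ACSL3, which acts on lipid droplets, fell by 0.80 on the log2 scale (SE 0.17). Of the other intracellular lipid-binding proteins, 4 of 13 had an adjusted p and 0 were called by DESeq2, edgeR or limma-voom (0 at an unadjusted p under 0.05), and FABP4, the adipocyte form, had no count in any library. Among 13 genes of lipoprotein and surface lipid uptake, 3 were called higher, none was called lower and 10 were not called. LRP8 (log2 fold change -0.56, DESeq2 adjusted p = 0.0044) and SCARB1 (-0.55, DESeq2 adjusted p = 0.0047) were lower in every HDAC8 library. Both, named after their values were seen, passed the adjusted p threshold and missed only the fold change needed for a call. The count of genes called lower was 2 without EV 1 and 1 without EV 3 or without HDAC8 1. Among those that rose were CAV1, by 1.36, and CAVIN1, by 1.15 on the log2 scale, both coat proteins of caveolae.

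Lipid droplet genes and lipases went both ways, with 3 of 16 higher, 2 lower and 11 not called. MGLL, the monoacylglycerol lipase, had 15.7, 17.7 and 0 normalized counts in EV and 164, 111 and 166 in HDAC8 (log2 fold change 3.72, SE 0.88, or 3.13 without EV 3). DGAT2, the last step of triglyceride synthesis, rose by 1.81 on the log2 scale (SE 0.30), and SOAT1, which esterifies cholesterol, fell by 1.21 (SE 0.15). The remaining called genes are the droplet coat proteins PLIN2, which fell by 0.84, and PLIN3, which rose by 0.71, both named after their values were seen. Without EV 3 the count of genes that rose was 2, as MGLL and DGAT2 kept their calls and PLIN3 did not. That count was 4 without HDAC8 2. Of 21 genes of mitochondrial fatty acid oxidation, 0 were called over all libraries by DESeq2, edgeR or limma-voom. At an unadjusted p under 0.05, 2 of them were higher and 3 lower. HADHA was lower in every HDAC8 library (log2 fold change -0.55, DESeq2 adjusted p = 0.00089). ACADVL was higher in every HDAC8 library (0.51, DESeq2 adjusted p = 0.048). Both, named after their values were seen, passed the adjusted p threshold and missed only the fold change needed for a call. In DESeq2, 1 was called lower with at least 10 counts in every library, without EV 1 or without HDAC8 1, and 1 higher without HDAC8 2 or without HDAC8 3.

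Of 15 genes of peroxisomal oxidation, 2 rose, 2 fell and 11 were not called. BAAT, which conjugates bile acids and fatty acids in the liver, had 1721, 1572 and 1517 normalized counts in EV and 109, 192 and 132 in HDAC8. Its groups were far apart, and its log2 fold change was -3.48 with a standard error of 0.26 (DESeq2 adjusted p = 1.09e-37). AMACR, a racemase for branched chains, rose by 1.30 and EHHADH, the bifunctional enzyme, by 0.81 on the log2 scale. The other gene that fell was ABCD2, a peroxisomal transporter named after its values were seen, with 39.8, 8.41 and 23.6 normalized counts in EV and 0 in each HDAC8 library. The count of genes that fell was 1 with edgeR and without EV 1 or EV 3. Of 12 acyl-CoA-binding proteins and thioesterases, ACOT11 alone was called and rose by 1.42. Of 12 lipid-sensing nuclear receptors and partners, 3 fell, none rose and 9 were not called. These were NR1H3, the oxysterol receptor LXR alpha (-1.11), PPARGC1A, the coactivator PGC-1 alpha (-0.71), and RXRG, a retinoid X receptor (-0.68). Several of these calls were lost in alternative fits. EHHADH lost its call with limma-voom (adjusted p = 0.0592), with a replicate block (DESeq2 adjusted p = 0.0848) and without EV 1, EV 3, HDAC8 1 or HDAC8 3 (up to 0.154), ACOT11 without any of the same 4 libraries (up to 0.156), NR1H3 with a replicate block (0.0628) and without EV 1, EV 2, EV 3 or HDAC8 2 (up to 0.140) and RXRG without EV 2 (0.0530).

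**Figure D5:**
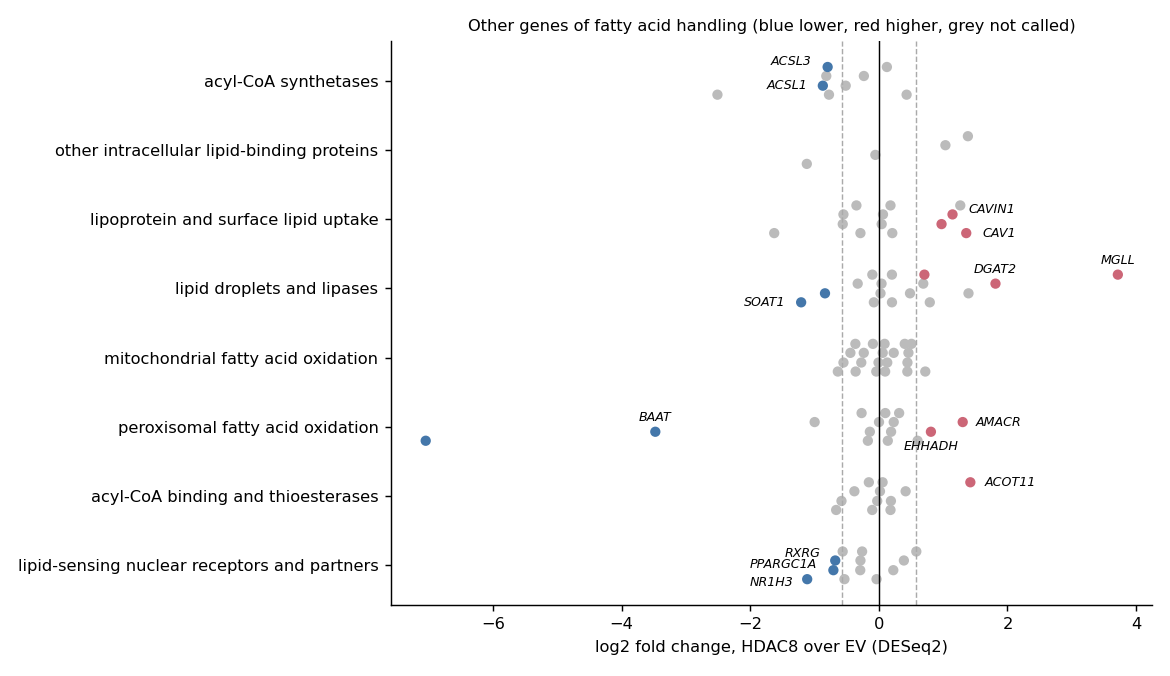
Log2 fold change of HDAC8 over EV (horizontal axis, DESeq2) of the genes with an adjusted p in 8 lists of fatty acid handling, 1 row per list and 1 point per gene, with dashed lines at 0.58 in either direction. Blue points fell, red points rose and grey points were not called. Red points stand for 9 of 102 genes, led by MGLL (3.72), and blue points for 9, with BAAT at -3.48 and ABCD2, at 0 in every HDAC8 library, farthest to the left.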

How the data were processed

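Bulk RNA-seq of 3 EV and 3 HDAC8 libraries of WM164 cells was analysed. The authors used Trimmomatic for read trimming, STAR for alignment and RSEM for quantification. What they deposited are expected counts per gene, not scaled between libraries. Genome build and strand setting are not given in the sources used here. Expected counts were rounded and tested in DESeq2 1.42.0 (R 4.3.3, two-sided Wald test, no covariates) for the 26162 genes whose counts summed to at least 10. Benjamini-Hochberg adjustment covered all genes with an adjusted p, and DESeq2 gave none for 5141. Size factors were 0.918 to 1.17. Thresholds (0.05 and 0.58) follow the methods of the study.

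Positions and transcript lengths come from GENCODE 44 (GRCh38), joined by Ensembl identifier (56558 of 60504 found). Promoter windows come from RefSeq (GRCh38.p14). Members and gene lists were chosen with earlier results of these data known. Named genes are the members, HDAC8, the 2 nearest tested protein-coding genes on each side of called members and up to 3 called genes per list with a mean of at least 50, of which 1 is not reported here. Core promoter letters (GC, CCAAT and TATA boxes) were added later. Alternatives were edgeR 4.0.16, limma-voom (limma 3.58.1), other size factors and count filters, a replicate block, exon unions as length, and each library left out. The fits were run on data simulated from the fitted DESeq2 model, which cannot show how well that model describes these libraries. The labels do not say that replicates were separate cultures, so p-values measure the spread between these libraries. Library pairs of a group differed by more than sampling noise.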

Additional observations from a re-analysis of the deposited data

How the results depend on the processing

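Every member with an adjusted p kept its direction and its side of the threshold in each alternative in which it was tested, 14 for SLC27A1, SLC27A3, SLC27A4, SLC27A5 and FABP5 and 13 for FABP7. These numbers include the fit with the copies added to FABP5. That fit left the counts of the other members unchanged, so it was no check of them. With at least 10 counts required in every library, FABP7 was not tested and the count of members called lower was 1. Leaving out each library in turn gave log2 fold changes of -3.37 to -2.82 for SLC27A3, 2.86 to 3.18 for FABP5, -7.12 to -5.93 for FABP7, 0.09 to 0.47 for SLC27A1, 0.08 to 0.47 for SLC27A4, -0.44 to -0.03 for SLC27A5 and 0.08 to 0.24 for HDAC8. FABP7 was -7.86 with limma-voom. Replicate numbers did not pair the libraries (correlations of deviations -0.0273, -0.0663 and 0.0399), and with the replicate block FABP7 was -7.25, SLC27A3 -3.05 and FABP5 2.99, with the same 3 members called.

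With exon unions as length, SLC27A3 was 48.4% of the SLC27 level in EV, FABP5 17.9% of the FABP level in EV and 99.1% in HDAC8, and FABP7 81.4% in EV. Ranks and family sums were not computed with this length. Among genes beside the members, 4 changed sign when libraries were left out, with ranges of -0.41 to 0.25 for PMP2, -0.11 to 0.39 for IMPA1, -0.038 to 0.13 for SERINC1 and -7.05 to 0.041 for CLVS2. CLVS2 was called lower without HDAC8 1, and the cause of these shifts was not tested. Pathway genes called higher ran from 6 to 12 and those called lower from 7 to 13 over the left-out libraries. No scaling moved the median of all genes by over 0.1 on the log2 scale (0.0435 with total-count size factors). Protein identity between members was not run.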
